A study of Mus musculus with 9 samples.

Results

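In mouse embryos at E2.75, around the morula stage, 76 of 20087 named genes stood above control level in both knockdowns, by the limits below. In the first knockdown the histone deacetylase genes Hdac1 and Hdac2 were lowered together, and in the second Sin3a was lowered. For some genes the margin was narrow, and 32 of the 76 met the limits whichever of the 9 libraries was left out. The 76 genes include the lactate dehydrogenase gene Ldha and the hypoxia factor Hif1a, the chromatin genes Hmga1, Sfmbt2, Pcgf2 and Cbx6, the extracellular matrix genes Lama5, Agrn and Hspg2, and the surface genes Ly6e, Fcgrt and H2-K1. They were picked by their measured values. A gene entered when its mean over the 3 control libraries was at least 50 normalised counts, when all 6 knockdown libraries lay above the highest control library, and when the mean of each knockdown group was at least 1.8 times the control mean. Their difference from the controls was thus set by the choice and carries no test here. The contrast between both knockdowns was not itself used in the choice, and is tested below. The choice still bears on it, since a gene that fell in either knockdown could not enter. Of the 76 genes, 13 rose in the Hdac1/2 knockdown relative to the Sin3a knockdown and 0 fell, where 8.49% of all genes tested were higher and 8.78% lower.

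The embryos had the B6D2F1 background, and each library was made from polyadenylated RNA of a pool of 60 embryos. Zygotes received small interfering RNA (siRNA, short RNA that directs the destruction of matching messenger RNA) against both Hdac1 and Hdac2 (Hdac1/2 cKD, 3 libraries), siRNA against Sin3a (Sin3a KD, 3 libraries) or a nonspecific siRNA as control (NC, 3 libraries). Control embryos are labelled wild type, and the knockdowns left part of each target RNA. The labels do not say whether the pools of a group came from separate collections, so the tests measure the spread between these pools, which may be technical. The libraries held between 11.9 M and 13.5 M normalised counts each.

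HDAC1 and HDAC2 are close relatives that remove acetyl groups from histone tails, a reaction generally linked to lower transcription. They work inside several large corepressor complexes, and SIN3A is the scaffold of the complex named after it, which sequence-specific factors bring to their target genes. Both deacetylases also sit in complexes that lack SIN3A, among them NuRD and CoREST.

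Hdac1 averaged 943 ± 152 in Hdac1/2 cKD, 1910.4 ± 639 in Sin3a KD and 5569 ± 661 in NC (SD, n = 3 each). Hdac2 averaged 305 ± 97.2, 2060.1 ± 67.6 and 2286 ± 241 in the same order of groups, and Sin3a 2044 ± 175, 431 ± 83.6 and 1484 ± 283. Hdac1 thus stood at 34.3% of NC in Sin3a KD, so the Sin3a KD libraries carried less of both Sin3a and Hdac1 RNA. NC replicate 3 stood apart, with 28.4% of genes listed at 0, against 13.2% to 17.7% in Hdac1/2 cKD, 16.2% to 19.96% in Sin3a KD and 15.4% and 23.4% in the other NC libraries. The 12 embryo markers, Pou5f1, Klf5 and Dppa2 among them, summed to 40808 to 42459.7 in Hdac1/2 cKD, 51231 to 55916 in Sin3a KD and 56483 to 62702 in NC. These embryo markers did not all move alike. Krt8 and Krt18 overlapped NC in Hdac1/2 cKD, and Pou5f1 and Klf5 overlapped NC in Sin3a KD. Cumulus and granulosa cell markers, of which 7 of 12 were measured, summed to 65.8 to 74.5 in Hdac1/2 cKD, 50.7 to 61.1 in Sin3a KD and 12.3 to 33.2 in NC. Of these, Foxl2 alone lay above every NC library in all 6 knockdown libraries. Its NC libraries held 3.97, 7.41 and 7.77, against 8.01, 25.2 and 35.4 for Hdac1/2 cKD. For Sin3a KD Foxl2 stood at 41.6, 21.7 and 15.2. Cyp11a1 ran from 2.74 to 10.7 for NC, 9.62 to 28.4 for Hdac1/2 cKD and 6.13 to 17.2 for Sin3a KD. Inhba exceeded NC for Hdac1/2 cKD alone, whereas Amh, Has2 and Tnfaip6 overlapped NC in both knockdowns. Cyp19a1 was at 0 in all 3 NC libraries, in 2 of 3 Hdac1/2 cKD libraries and in 2 of 3 Sin3a KD libraries. Fibroblast markers summed to 4.90 to 43.7, 7.26 to 11.4 and 1.55 to 25.8 in the 3 groups, and blood markers to 26.2 to 53.5, 17.7 to 36.1 and 17.7 to 33.7. The part of these markers in the values below was not tested. In such pools, more cells that express a gene and more RNA per cell cannot be told apart.

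Sequence before a RefSeq transcript start of 4 of the genes is shown because the results turn on them: Ldha and Hif1a for glycolysis and hypoxia, and Sfmbt2 and Pcgf2 for chromatin. Each stretch is the 250 bases before the start used in the RefSeq promoter table (GRCm38.p6), written 5′ to 3′ on the gene's own strand. The windows are chr7:46845554-46845803 (forward strand), chr12:73907617-73907866 (forward), chr2:10370201-10370450 (forward) and chr11:97699649-97699898 (reverse), and 0 annotated exons overlap them. For Ldha, Hif1a and Pcgf2 the window lies inside the longer gene span of the GENCODE annotation given below, and for Sfmbt2 it lies before it. In the first pair capitals mark the core letters bound by hypoxia-inducible factors (ACGTG or GCGTG on either strand), and touching matches were merged. In the second pair they mark the GC box (GGGCGG on either strand).
Ldha: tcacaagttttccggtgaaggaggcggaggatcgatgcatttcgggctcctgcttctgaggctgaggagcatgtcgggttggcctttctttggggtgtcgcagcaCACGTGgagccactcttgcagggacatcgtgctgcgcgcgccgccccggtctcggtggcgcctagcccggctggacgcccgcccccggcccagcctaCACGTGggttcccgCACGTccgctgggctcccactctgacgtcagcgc
Hif1a: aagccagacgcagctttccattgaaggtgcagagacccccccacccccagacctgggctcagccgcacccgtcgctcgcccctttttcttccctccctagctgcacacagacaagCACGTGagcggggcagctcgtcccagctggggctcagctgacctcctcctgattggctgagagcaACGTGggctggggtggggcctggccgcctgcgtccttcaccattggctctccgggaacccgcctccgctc
Sfmbt2: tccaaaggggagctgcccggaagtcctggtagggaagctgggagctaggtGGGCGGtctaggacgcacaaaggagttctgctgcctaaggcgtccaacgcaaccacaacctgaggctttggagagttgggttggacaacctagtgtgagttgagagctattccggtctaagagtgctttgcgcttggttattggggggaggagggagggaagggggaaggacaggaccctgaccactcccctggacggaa
Pcgf2: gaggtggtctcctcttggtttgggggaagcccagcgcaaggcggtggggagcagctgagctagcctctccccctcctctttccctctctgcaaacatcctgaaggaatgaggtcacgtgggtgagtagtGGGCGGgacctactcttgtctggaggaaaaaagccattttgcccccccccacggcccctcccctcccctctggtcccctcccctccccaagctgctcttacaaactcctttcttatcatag
The Ldha window holds 3 stretches with a hypoxia core and the Hif1a window 2. Sfmbt2 and Pcgf2 hold 1 GC box each. The motifs are not exclusive to a pair: Pcgf2 also holds a hypoxia core, unmarked here, and the Ldha promoter also holds a GC box. A hypoxia core of either spelling occurs in 43 of the 65 genes with a promoter in the table (66.2%), and in 66.2% of all 7582 genes with an NC mean of at least 50 and a promoter. A GC box occurs in 48 of the 65 (73.8%), and in 67.9% of all. In both searches the whole 300 bases of the table were read, 250 before and 50 after the start.

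**Figure D1:**
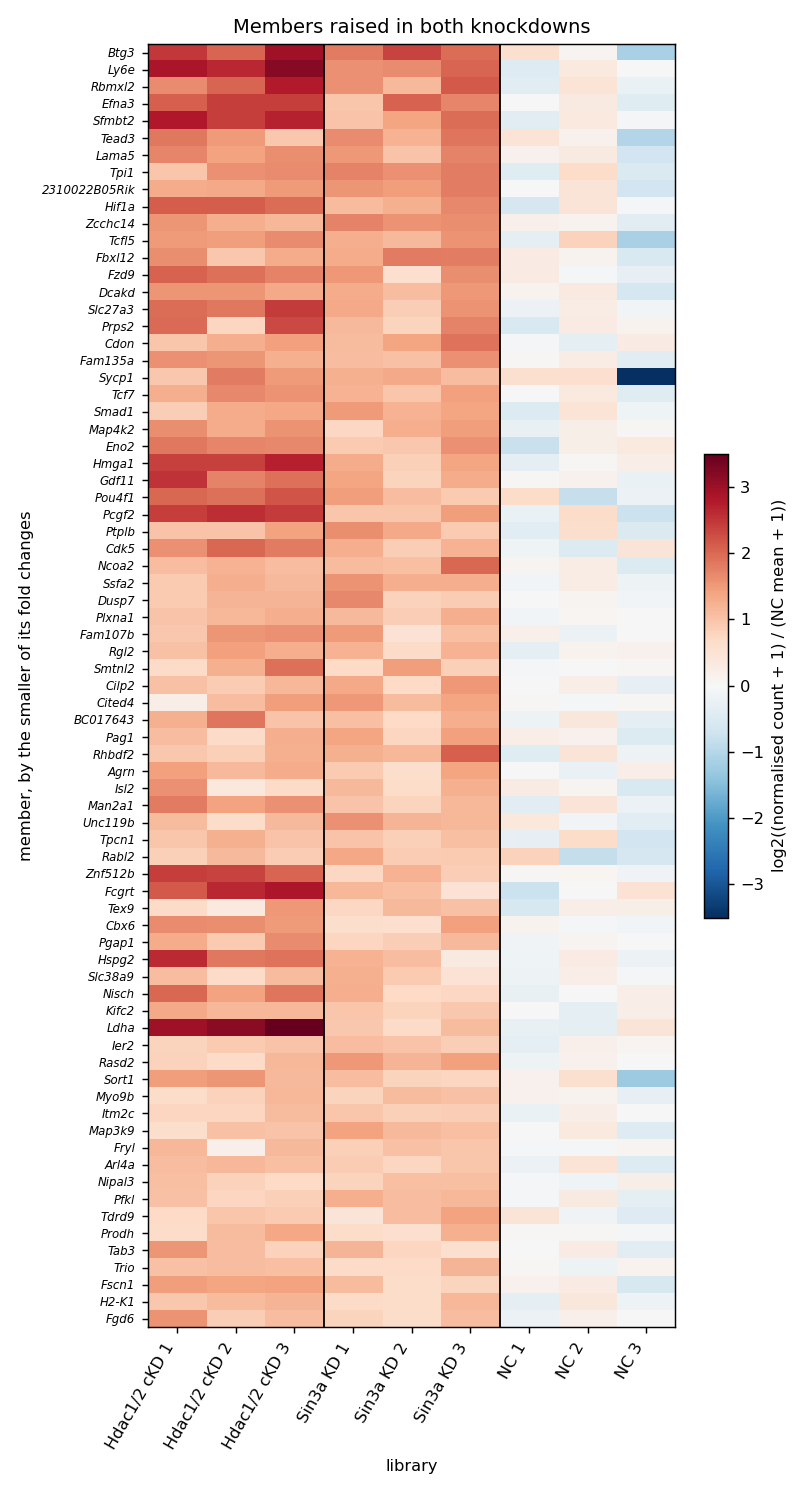
Level of 75 of the 76 genes (rows) in each of the 9 libraries (columns: Hdac1/2 cKD, Sin3a KD and NC, 3 each) as log2 of the normalised count plus 1 over the NC mean plus 1, with colours limited to 3.5 either way. All 6 knockdown columns lie above all 3 NC columns in each row, as the choice requires, and Sycp1 in NC replicate 3, listed at 0, runs past the colour scale.

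Over the 76 genes the median fold over the NC mean was 2.57 in Hdac1/2 cKD (1.83 to 9.31) and 2.26 in Sin3a KD (1.801 to 4.24). A mean above 4 times NC was reached by 16 genes in Hdac1/2 cKD and by 1, Btg3, in Sin3a KD. Both folds were at least 2 in 44 of the genes. Of the 9541 genes with an NC mean of at least 50, 489 met the conditions in Hdac1/2 cKD and 248 in Sin3a KD, and the 76 that met both are 0.797% of them. All 6 knockdown libraries lay above the highest NC library in 461 of the 9541 (4.83%). Just inside the limit of 1.8 were Fscn1, H2-K1 and Fgd6 with smaller folds of 1.81, 1.804 and 1.801, and just outside were Ube2a, Slc25a30 and Pcyox1 with 1.797, 1.79 and 1.79. The genes were weakly expressed in controls, with a median NC mean of 111 against 469 in all 9541, and 34 of the 76 had an NC mean below 100. The contrasts against NC share the NC libraries, so both folds of a gene rest on the same NC mean. Without NC replicate 3, which stood apart, the median folds were 2.298 in Hdac1/2 cKD and 2.13 in Sin3a KD. Of the 76 genes, 55 then still met the conditions, the fewest for any 1 library left out.

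Glycolysis turns glucose into pyruvate, and lactate dehydrogenase turns pyruvate into lactate. Hif1a encodes the oxygen-regulated subunit of the hypoxia-inducible factor, which switches on many glycolytic genes. The group holds 5 of the 76 genes, with a median fold over NC of 3.37 in Hdac1/2 cKD and 2.29 in Sin3a KD. Ldha (chromosome 7, 46841475 to 46855627, forward strand, GRCm38 with GENCODE vM21, as for all positions below) stood, in normalised counts, at 2380.1, 2739 and 3444 in Hdac1/2 cKD, 589.5, 484 and 659.7 in the Sin3a KD group and 256, 246 and 418 in NC. Every Hdac1/2 cKD library was more than 3 times the highest Sin3a KD library, and the lowest Sin3a KD library lay only just above the highest NC library. On the log2 scale Ldha was higher in Hdac1/2 cKD than in Sin3a KD by 2.30 (SE 0.21, adjusted p = 1.91e-05), the largest difference among the 76 genes. These p-values come from limma with Benjamini-Hochberg adjustment over 13343 genes, and all differences between knockdowns below are on the log2(value + 1) scale, Hdac1/2 cKD minus Sin3a KD.

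Hif1a (chromosome 12, 73901375 to 73947530, forward strand) stood at 561, 559 and 506 in Hdac1/2 cKD, 281, 307 and 411 in the Sin3a KD libraries and 85.1, 176 and 125 in those of NC. All 3 Hdac1/2 cKD libraries lay above all 3 Sin3a KD libraries, but the difference did not pass, at 0.72 (SE 0.25, adjusted p = 0.0644). Tpi1 (chromosome 6, 124810586 to 124814296, reverse strand), the triosephosphate isomerase of glycolysis, showed another order, with 494, 752 and 786 in the Hdac1/2 cKD libraries, 833, 759 and 869 in Sin3a KD, against 187, 387 and 175 in NC. Both knockdown groups overlapped, and the difference was -0.30 (95% interval -0.89 to 0.29). Eno2 (chromosome 6, 124760053 to 124769673, reverse strand), an enolase best known from neurons, stood at 1227, 1119.6 and 1098 in Hdac1/2 cKD, 648, 653 and 1043 in the Sin3a KD group and 197, 393 and 433 in NC, with a difference of 0.59 (SE 0.27, adjusted p = 0.165). Eno2 and Tpi1 are neighbours on chromosome 6, separated by 40913 bases with 2 other genes of the table between them. Pfkl, the liver form of phosphofructokinase, averaged 496 ± 50.8 in Hdac1/2 cKD, 611 ± 39.2 in Sin3a KD and 271 ± 60.7 in NC (SD, n = 3 each). All its Hdac1/2 cKD libraries lay below all its Sin3a KD libraries, and the difference of -0.30 (SE 0.18, adjusted p = 0.284) did not pass. Ldha and Tpi1 have near-identical copies elsewhere in the genome, so the division of reads among copies is uncertain for both.

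Of 22 genes in the glycolysis list with an NC mean of at least 50, 4 are among the 76, that is 18.2%, against 0.797% of all such genes. Over the 27 tested genes of the list, 11 were called higher and 0 lower in Hdac1/2 cKD against NC, where 7.81% of all genes tested were called higher. In Sin3a KD against NC 9 were called higher and 2 lower, against 3.6% of all genes called higher. Called lower were 7.8% of all genes in Hdac1/2 cKD against NC and 4.36% in Sin3a KD against NC. Those contrasts helped to choose the 76 genes, of which 71 were called higher in the first and 61 in the second, so nothing is read from these counts. In Hdac1/2 cKD against Sin3a KD, 7 were called higher and 1 lower, where 8.49% of all genes were called higher and 8.78% lower, and the median difference was 0.22 against 0.01 over all genes tested.

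Chromatin proteins and transcriptional cofactors form the group with the largest gap between the knockdowns: 8 genes had a median fold over NC of 5.16 in Hdac1/2 cKD and 2.26 in Sin3a KD, and 6 of them rose in the contrast between both. Hmga1 (chromosome 17, 27556497 to 27563674, forward strand), which encodes an architectural protein that bends AT-rich DNA, stood at 2673, 2668 and 3353 in Hdac1/2 cKD, 1239.6, 908 and 1323 in the Sin3a KD libraries and 399.9, 526 and 594 in those of NC. The groups did not overlap, and the difference was 1.33 (SE 0.18, adjusted p = 0.000275). Its reads may be shared with other loci, so its level is uncertain.

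Sfmbt2, Pcgf2 and Cbx6 belong to or are linked with Polycomb, the system that keeps genes silent through histone marks. Sfmbt2 (chromosome 2, 10370510 to 10595253, forward strand) is an imprinted gene read from the paternal copy in the early embryo and placenta, and stood at 1390.2, 1077 and 1299 in the Hdac1/2 cKD libraries, 398, 519 and 782 in Sin3a KD, against 154, 254 and 189 in NC. Its lowest Hdac1/2 cKD library lay above its highest Sin3a KD library, and the difference was 1.19 (SE 0.24, adjusted p = 0.0044). Pcgf2 (chromosome 11, 97688823 to 97700497, reverse strand), a RING finger subunit of Polycomb repressive complex 1 also called MEL18, stood at 356, 399 and 365 in Hdac1/2 cKD, 130.4, 129 and 182 in the Sin3a KD group and 55.5, 103 and 39.03 in NC. Here Sin3a KD replicates 1 and 2 lay near NC replicate 2, whereas the Hdac1/2 cKD libraries stood close together at a higher level, and the difference was 1.35 (SE 0.32, adjusted p = 0.00963). Cbx6 (chromosome 15, 79823896 to 79834688, reverse strand), a chromobox subunit of the same complex, stood at 639.7, 636 and 576 in Hdac1/2 cKD, 309.9, 309 and 551 in the Sin3a KD libraries and 223, 198 and 189 in those of NC. Its Sin3a KD replicate 3 came close to the Hdac1/2 cKD libraries, and the difference of 0.71 (SE 0.22, adjusted p = 0.0366) was the smallest that passed. The Cbx6 call was lost without Hdac1/2 cKD replicate 1, 2 or 3 (adjusted p = 0.107, 0.109 and 0.0692, limma) and without Sin3a KD replicate 1 or 2 (adjusted p = 0.151 and 0.136).

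Znf512b (chromosome 2, 181582103 to 181592803, reverse strand), a zinc finger gene listed as Zfp512b in the annotation, stood at 509, 487 and 393 in the Hdac1/2 cKD libraries, 157, 219 and 171 in Sin3a KD, against 96.1, 99.6 and 86.8 in NC. The difference was 1.35 (SE 0.21, adjusted p = 0.000885). The remaining cofactor genes had lower means in Hdac1/2 cKD than in Sin3a KD: Ncoa2, a nuclear receptor coactivator, had folds over NC of 2.19 in Hdac1/2 cKD and 2.76 in Sin3a KD, and Cited4, a partner of the acetyltransferases CBP and p300, 2.05 and 2.56, with neither passing. Among 42 histone deacetylase and corepressor genes with an NC mean of at least 50, 0 are among the 76 genes, and 2 of 70 other chromatin regulators are. For the DNA methylation machinery the count was 0 of 21. Over all genes with that NC mean the share was 0.797%, so counts of 0 in lists of this size do not set these families apart.

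**Figure D2:**
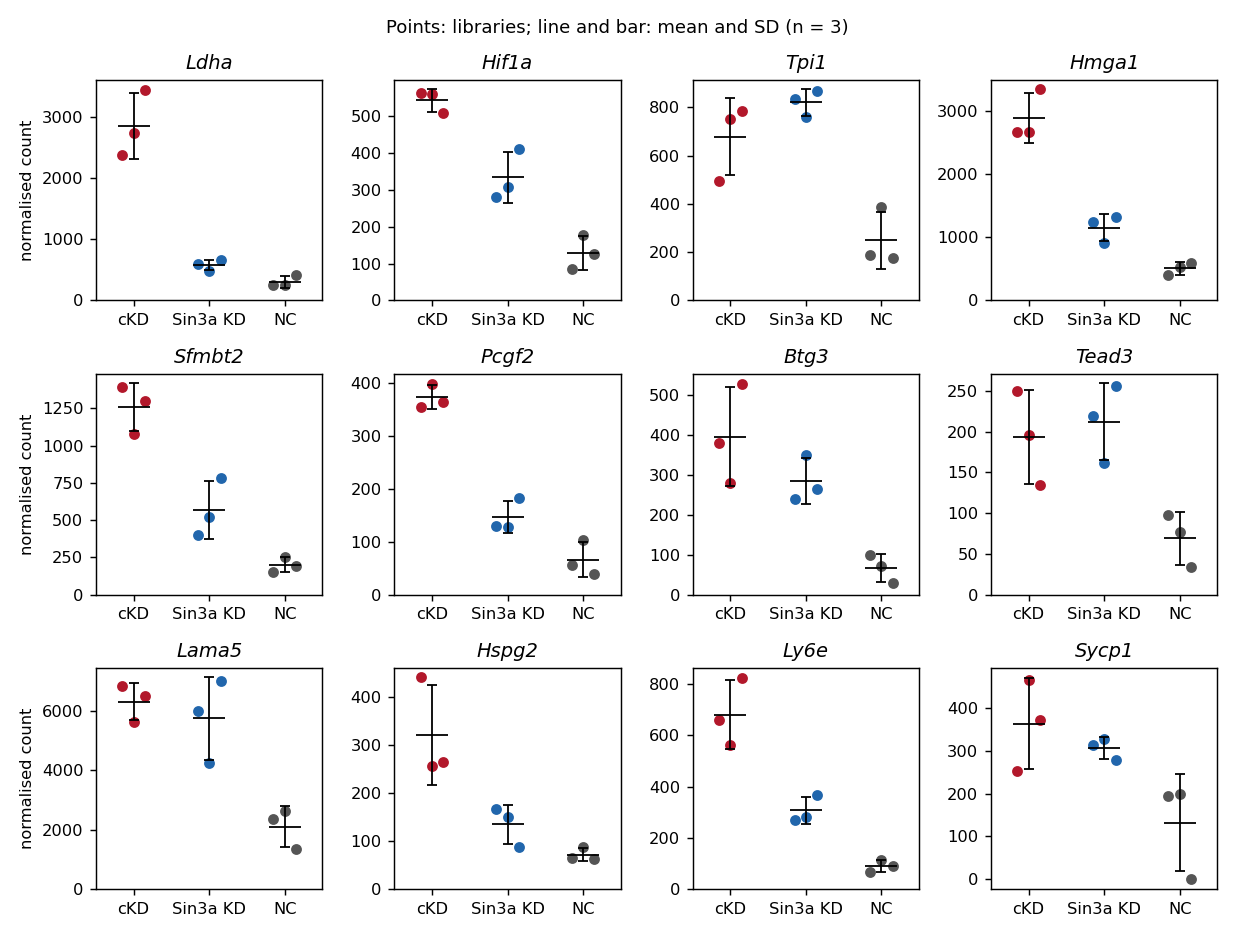
Normalised counts (linear axis) of 12 of the genes in each library, with points for libraries and the mean and SD of each group (Hdac1/2 cKD, shown as cKD, then Sin3a KD, then NC from left to right, 3 libraries each). Ldha, Hmga1, Sfmbt2, Pcgf2 and Ly6e step down from Hdac1/2 cKD over Sin3a KD to NC, while in Tpi1, Btg3, Tead3, Lama5 and Sycp1 both knockdown groups overlap.

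Sequence-specific transcription factors and growth regulators number 8, with a median fold over NC of 2.84 in Hdac1/2 cKD and 2.43 in Sin3a KD, and 0 of them passed between the knockdowns. Btg3 (chromosome 16, 78332637 to 78377192, reverse strand), an antiproliferative protein of the BTG/TOB family, had the highest smaller fold of all 76 genes, with 380.4, 279 and 527 in Hdac1/2 cKD, 239, 350.4 and 264 in the Sin3a KD group and 98.7, 72.4 and 30.04 in NC. The mean was 5.90 times NC in Hdac1/2 cKD and 4.24 times in Sin3a KD, and the difference between them was 0.45 (95% interval -0.37 to 1.27). NC replicate 3 was the lowest library, and without it the folds over NC were 4.62 in Hdac1/2 cKD and 3.33 in Sin3a KD. Tead3 (chromosome 17, 28331671 to 28350817, reverse strand), a DNA-binding partner of the Hippo pathway coactivators, stood at 249, 196 and 135 in Hdac1/2 cKD, 219, 162 and 256 in the Sin3a KD libraries and 97.2, 76.6 and 33.6 in those of NC. Both knockdown groups overlapped, with a difference of -0.15 (95% interval -0.95 to 0.65), and again NC replicate 3 was lowest. Without it the folds of Tead3 over NC were 2.23 in Hdac1/2 cKD and 2.44 in Sin3a KD. Among 33 genes of the Hippo and polarity list with an NC mean of at least 50, Tead3 was the only one of the 76. That is 3.03%, against 0.797% of all genes with that NC mean, and it rests on 1 gene. In Hdac1/2 cKD against NC 3 of 34 tested genes of the list were called higher and 12 lower (all genes 7.81% and 7.8%). In Sin3a KD against NC 2 were called higher and 3 lower (3.6% and 4.36%). Between the knockdowns 6 were called higher and 9 lower (8.49% and 8.78%). Both contrasts against NC helped to choose the 76 genes.

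Pou4f1 (chromosome 14, 104461676 to 104467999, reverse strand), a POU factor of sensory neurons, stood at 394, 369 and 449 in the Hdac1/2 cKD libraries, 267, 205 and 182 in Sin3a KD, against 151, 55.2 and 83.3 in NC. Its knockdown groups did not overlap, but the difference of 0.90 (SE 0.31, adjusted p = 0.0622) did not pass. Tcfl5, a basic helix-loop-helix factor of germ cells, averaged 479.7 ± 35.5 in Hdac1/2 cKD, 417 ± 65.3 in Sin3a KD and 164 ± 112 in NC (SD, n = 3 each). Tcf7, an effector of Wnt signalling, Isl2, a LIM homeobox factor of motor neurons, Smad1, which carries bone morphogenetic protein signals, and the immediate early gene Ier2 complete the group. Their folds over NC ran between 1.87 and 2.87 in Hdac1/2 cKD and between 1.98 and 2.62 in Sin3a KD. The table names 248 genes with an NC mean of at least 50 Zfp, Zscan, Zbtb or Zkscan. Of these 0 are among the 76, against 0.797% of all genes with that NC mean. Znf512b, which the table gives under another name, is among the 76.

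Basement membranes are sheets of laminin, collagen and proteoglycans to which epithelia attach, and the early embryo begins to lay them down before implantation. Lama5 (chromosome 2, 180176373 to 180225859, reverse strand), the laminin alpha-5 chain, was among the most abundant of the genes, with 6816, 5617 and 6491 in Hdac1/2 cKD, 5988, 4227 and 6998 in the Sin3a KD group and 2344, 2625 and 1327 in NC. The knockdown groups overlapped, and the difference was 0.16 (95% interval -0.42 to 0.75). Agrn, the proteoglycan agrin, averaged 1355 ± 143 in Hdac1/2 cKD, 1101 ± 301 in Sin3a KD and 550.3 ± 86.7 in NC (SD, n = 3 each), with overlapping knockdown groups and a difference of 0.33 (95% interval -0.07 to 0.73). Hspg2 (chromosome 4, 137468769 to 137570630, forward strand), the proteoglycan perlecan, differed from both: it stood at 440.2, 256 and 264 in Hdac1/2 cKD, 166, 149.7 and 88.1 in the Sin3a KD libraries and 63.98, 86.4 and 61.8 in those of NC. All Hdac1/2 cKD libraries lay above all Sin3a KD libraries, with a difference of 1.25 (SE 0.31, adjusted p = 0.0126), while Sin3a KD replicate 3 exceeded the highest NC library by only a few counts. The Hspg2 call was lost without Hdac1/2 cKD replicate 1 (adjusted p = 0.0714, limma) and without Sin3a KD replicate 3 (adjusted p = 0.0581). Cilp2, a matrix protein of cartilage, had folds over NC of 2.06 in Hdac1/2 cKD and 2.34 in Sin3a KD.

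Of 18 genes in the list of extracellular matrix genes and proteases with an NC mean of at least 50, 3 are among the 76 (16.7%, against 0.797% of all such genes). Over its 31 tested genes, 7 were called higher and 0 lower in Hdac1/2 cKD against NC, and 6 higher and 1 lower in Sin3a KD against NC. Over all genes 7.81% were called higher and 7.8% lower in the first contrast, and 3.6% and 4.36% in the second, and both helped to choose the 76 genes. Between the knockdowns 3 were called higher and 2 lower, where 8.49% of all genes were called higher and 8.78% lower. The median difference was 0.19 against 0.01 over all genes tested. A separate list of primitive endoderm and basement membrane genes holds 0 of the 76 among its 15 genes with an NC mean of at least 50. Over its 18 tested genes, 1 was called higher and 4 lower in Hdac1/2 cKD against NC, and 3 higher and 1 lower in Sin3a KD against NC. Between the knockdowns 2 were called higher and 6 lower, with a median difference of -0.35 against 0.01 over all genes tested. The shares over all genes given above hold beside these counts too.

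Ligands and receptors of cell signalling number 5, with a median fold over NC of 3.79 in Hdac1/2 cKD and 2.51 in Sin3a KD. Gdf11 (chromosome 10, 128882295 to 128891718, reverse strand), a ligand of the transforming growth factor beta family, stood at 681, 392 and 451 in the Hdac1/2 cKD libraries, 307, 200.4 and 292 in Sin3a KD, against 121, 131 and 99.5 in NC. It rose in the contrast between the knockdowns, by 0.91 (SE 0.25, adjusted p = 0.0215), a call that was lost without Hdac1/2 cKD replicate 1 (adjusted p = 0.111) or Sin3a KD replicate 2 (adjusted p = 0.0911). Efna3 (chromosome 3, 89313899 to 89322965, reverse strand), an ephrin that signals between touching cells, stood at 511, 641 and 649 in Hdac1/2 cKD, 234, 503 and 395 in the Sin3a KD group and 122, 149.8 and 88.5 in NC. All of its Hdac1/2 cKD libraries exceeded all of its Sin3a KD libraries, yet the difference of 0.73 (SE 0.27, adjusted p = 0.0866) did not pass. Plxna1 (chromosome 6, 89316314 to 89362620, reverse strand), a semaphorin receptor, was close in both knockdowns, with 2079.7, 2329 and 2518 in Hdac1/2 cKD, 2306, 1887 and 2540.5 in the Sin3a KD libraries and 984, 1099 and 1052 in those of NC and a difference of 0.05 (95% interval -0.22 to 0.32). The Wnt receptor gene Fzd9 and the Hedgehog co-receptor gene Cdon had folds over NC of 3.79 and 2.40 in Hdac1/2 cKD and of 2.51 and 2.85 in Sin3a KD.

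Regulators of kinases, small GTPases and the cytoskeleton form the largest group, with 16 genes and median folds over NC of 2.29 in Hdac1/2 cKD and 2.02 in Sin3a KD. Fscn1 (chromosome 5, 142960343 to 142973185, forward strand), the actin-bundling protein fascin, was among the most abundant, with 3175, 2959.8 and 3016 in the Hdac1/2 cKD libraries, 2467, 1777 and 1949 in Sin3a KD, against 1257, 1398 and 772 in NC. The difference of 0.58 (SE 0.19, adjusted p = 0.0559) missed the threshold. Nisch, which encodes nischarin, an integrin-binding protein, was the only gene of this group to rise in the contrast between the knockdowns. It stood at 474, 314 and 432 in Hdac1/2 cKD, 282, 192 and 193 in the Sin3a KD group and 97.6, 116 and 137 in NC, and the difference was 0.87 (SE 0.24, adjusted p = 0.0231). The call was lost without Hdac1/2 cKD replicate 1 or 3 (adjusted p = 0.102 and 0.0828, limma) and without Sin3a KD replicate 2 or 3 (adjusted p = 0.0826 and 0.0833). Rasd2 (chromosome 8, 75213944 to 75224113, forward strand), the small GTPase Rhes, had the lowest difference of the 76, with 105, 94.6 and 132 in Hdac1/2 cKD, 171, 137 and 161 in the Sin3a KD libraries and 51.9, 65.8 and 59.5 in those of NC. All Hdac1/2 cKD libraries lay below all Sin3a KD libraries, and the difference of -0.50 (95% interval -1.08 to 0.07) did not pass (adjusted p = 0.222, limma). The group also holds the kinase genes Map4k2, Map3k9 and Cdk5, the kinase adaptor gene Tab3 and the phosphatase gene Dusp7. Small GTPases and their exchange factors or inhibitors are represented by Arl4a, Rabl2, Rgl2, Trio, Fgd6 and Myo9b, and the cytoskeleton by Smtnl2 and the kinesin gene Kifc2. Over all 16, folds over NC ran between 1.85 and 3.59 in Hdac1/2 cKD and between 1.801 and 2.65 in Sin3a KD.

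Germ line genes were few: Sycp1, Tdrd9, Rbmxl2 and Tex9, with a median fold over NC of 2.34 in Hdac1/2 cKD and 2.19 in Sin3a KD. Sycp1 (chromosome 3, 102818499 to 102936100, reverse strand), a component of the synaptonemal complex that joins chromosomes in meiosis, stood at 253, 466 and 372 in the Hdac1/2 cKD libraries, 314, 329 and 279 in Sin3a KD, against 195, 199.9 and 0 in NC. NC replicate 3 was listed at 0, and the folds over the NC mean were 2.76 in Hdac1/2 cKD and 2.33 in Sin3a KD. Without that library they were 1.84 and 1.56, so Sycp1 then missed the limit of 1.8 in Sin3a KD. Rbmxl2 (chromosome 7, 107209445 to 107210916, forward strand), an RNA-binding protein of the testis, stood at 198, 259.6 and 436 in Hdac1/2 cKD, 192, 138 and 278 in the Sin3a KD group and 47.8, 87.5 and 52.8 in NC, with overlapping knockdown groups. Tdrd9, a helicase of the pathway that silences transposons in germ cells, averaged 367 ± 34.2 in Hdac1/2 cKD, 412 ± 131 in Sin3a KD and 201 ± 64.6 in NC (SD, n = 3 each). Without NC replicate 3 the folds of Tdrd9 were 1.61 in Hdac1/2 cKD and 1.81 in Sin3a KD, so it missed the limit in Hdac1/2 cKD. Of 25 germ line list genes with an NC mean of at least 50, 2 are among the 76 (8%, against 0.797% of all such genes). They are Sycp1 and Tdrd9, and neither met the limit without NC replicate 3. Over 39 tested, 8 were called higher and 2 lower in Hdac1/2 cKD against NC, 2 higher and 2 lower in Sin3a KD against NC, and 8 higher and 2 lower between the knockdowns, with a median difference of -0.02 against 0.01 over all genes. Over all genes 7.81% were called higher and 7.8% lower in the first contrast, 3.6% and 4.36% in the second and 8.49% and 8.78% in the third, and the first and second helped to choose the 76 genes.

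Genes of the cell surface and of immunity number 4, with a median fold over NC of 4.04 in Hdac1/2 cKD and 2.13 in Sin3a KD. Ly6e (chromosome 15, 74955051 to 74959905, forward strand), a lipid-anchored surface protein induced by interferon and needed in the placenta, stood at 658, 561 and 824 in Hdac1/2 cKD, 271, 283 and 368 in the Sin3a KD libraries and 65.2, 114 and 88.7 in those of NC. Both knockdown groups were clear of NC and of each other, with a difference of 1.14 (SE 0.24, adjusted p = 0.00526). Fcgrt (chromosome 7, 45092990 to 45103851, reverse strand), the neonatal Fc receptor that carries antibodies across cells, stood at 420.3, 591 and 669 in the Hdac1/2 cKD libraries, 212, 197 and 134 in Sin3a KD, against 54.9, 93.6 and 134 in NC. Sin3a KD replicate 3 stood at 133.8, barely above NC replicate 3 at 133.6. The difference between the knockdowns was 1.63 (SE 0.31, adjusted p = 0.00323). H2-K1, a classical class I histocompatibility gene with close relatives in the genome, averaged 1547 ± 137 in Hdac1/2 cKD, 1317 ± 277 in Sin3a KD and 729.9 ± 206 in NC (SD, n = 3 each). Rgl2 lies 58330 bases from H2-K1 on chromosome 17, with 7 other genes of the table between. Pag1, a membrane adaptor of immune cells, had folds over NC of 2.04 in Hdac1/2 cKD and 2.34 in Sin3a KD. Of 14 interferon response genes with an NC mean of at least 50, 1 is among the 76, H2-K1 (7.14%, against 0.797% of all such genes). The smaller fold of H2-K1 was 1.804, and without NC replicate 3 its fold in Sin3a KD was 1.71. In Hdac1/2 cKD against NC 1 of 22 tested list genes was called higher and 3 lower (all genes 7.81% and 7.8%). In Sin3a KD against NC 2 were called higher and 1 lower (3.6% and 4.36%). Between the knockdowns 1 was called higher and 2 lower (8.49% and 8.78%). Both contrasts against NC helped to choose the 76 genes.

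Transport, membrane and metabolic genes number 14, with a median fold over NC of 2.17 in Hdac1/2 cKD and 1.98 in Sin3a KD. Slc27a3 (chromosome 3, 90385239 to 90389938, reverse strand), of the fatty acid transport family, was the only one of them to rise between the knockdowns. It stood at 411, 382 and 586 in Hdac1/2 cKD, 267, 195 and 316 in the Sin3a KD group and 91.8, 127 and 98.9 in NC, with a difference of 0.83 (SE 0.25, adjusted p = 0.0332). The call was lost without Hdac1/2 cKD replicate 1 or 3 (adjusted p = 0.0642 and 0.15, limma), without Sin3a KD replicate 1 or 2 (adjusted p = 0.0774 and 0.131) and after the correction for transcript GC (adjusted p = 0.0602). The others are the lysosomal amino acid sensor gene Slc38a9, the sorting receptor gene Sort1, the endolysosomal channel gene Tpcn1 and the Golgi mannosidase gene Man2a1. Pgap1 remodels lipid anchors, Ptplb (Hacd2 in the annotation) lengthens fatty acids, Prps2 makes a precursor of nucleotides and Prodh breaks down proline. Dcakd, Nipal3, Unc119b, Itm2c and Rhbdf2, which encodes an inactive rhomboid protein, complete the group. The 8 genes left are Zcchc14, Fbxl12, which encodes an F-box protein, Fam135a, Ssfa2, Fam107b, Fryl, 2310022B05Rik and BC017643, with a median fold over NC of 2.57 in Hdac1/2 cKD and 2.501 in Sin3a KD. Zcchc14 averaged 483 ± 70.8 in Hdac1/2 cKD, 597 ± 33.4 in Sin3a KD and 190.0 ± 36.7 in NC (SD, n = 3 each), with every Hdac1/2 cKD library below every Sin3a KD library, but the difference of -0.31 (SE 0.19, adjusted p = 0.289) did not pass.

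In the contrast between the knockdowns, 13 of the 76 genes (17.1%) were called higher in Hdac1/2 cKD, where 8.49% of all 13343 genes were, and 0 were called lower, where 8.78% of all genes were, a share that includes genes that fell in Hdac1/2 cKD and so could not be among the 76. At an unadjusted p below 0.05, limma gave 20 higher and 0 lower among the 76, against 15.3% higher and 15.1% lower over all genes. Of the 13, 12 are Ldha, Fcgrt, Pcgf2, Znf512b, Hmga1, Hspg2, Sfmbt2, Ly6e, Gdf11, Nisch, Slc27a3 and Cbx6. With lane as a factor 6 were called higher, 5 of them among the 13, and without Hdac1/2 cKD replicate 1 there were 8. The calls of Hmga1, Fcgrt and Ldha were kept in all 21 alternative settings. The other 63 genes did not pass, which does not show that they are equal in both knockdowns, with the Hdac1/2 cKD mean above the Sin3a KD mean in 35 and below it in 28.

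Over all 76 the median difference was 0.23 (range -0.50 to 2.30), against -0.02 over the 9541 genes with an NC mean of at least 50. It was 0.12 with lane as a factor. The Hdac1/2 cKD mean exceeded the Sin3a KD mean in 48 of the 76 (63.2%), against 47.8% of the 9541. In 24 of them (31.6%) all 3 Hdac1/2 cKD libraries lay above all 3 Sin3a KD libraries, against 21.4% of the 9541. In 5 (6.58%), namely Pfkl, Map3k9, Rasd2, Unc119b and Zcchc14, they lay below, against 23.7%. The choice compared neither knockdown with the other. It left out every gene below 1.8 times NC in either knockdown, so the shares over all genes, in particular of lower genes, are not those of genes that could have entered.

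**Figure D3:**
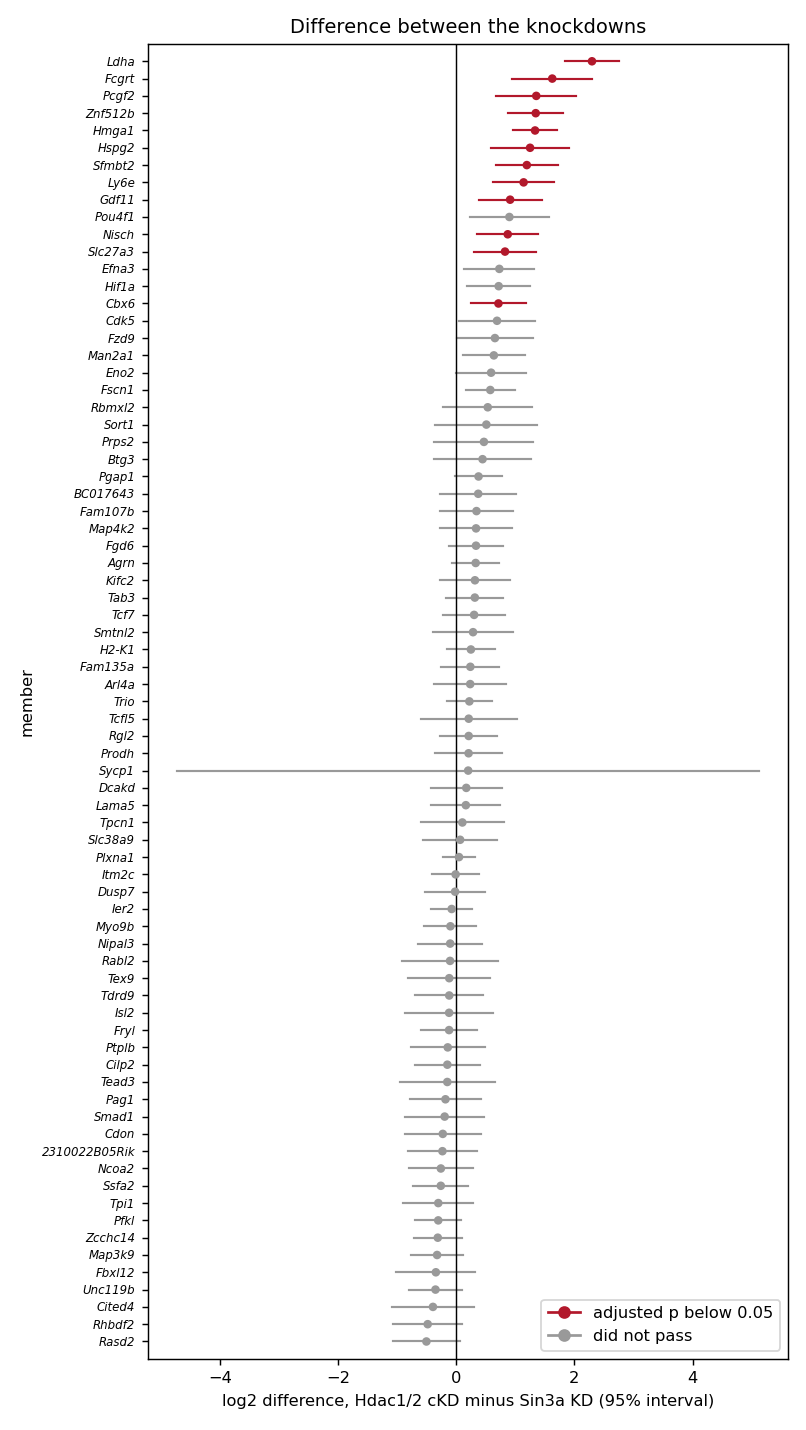
Difference between Hdac1/2 cKD and Sin3a KD (log2 of the normalised count plus 1, Hdac1/2 cKD minus Sin3a KD) for 75 of the 76 genes, with 95% intervals from limma over 9 libraries, and 12 of the 13 with an adjusted p below 0.05 in red. The red points run from Cbx6 at 0.71 to Ldha at 2.30, and the lowest value, Rasd2 at -0.50, has an interval that includes 0.

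Lanes, read from the library descriptions, were unequal between the groups: Hdac1/2 cKD on lanes 2, 2 and 3, Sin3a KD on 4, 3 and 3, and NC on 5, 2 and 3. Within lane 3, with 1 Hdac1/2 cKD and 2 Sin3a KD libraries, the median difference of the 13 genes was 1.24. Their direction there follows from groups that do not overlap, so it is no check on lane. Over the 76, 58 were higher in Hdac1/2 cKD there, with a median of 0.29 against 0.02 over all genes tested. In lane 2, which holds Hdac1/2 cKD replicates 1 and 2 and NC replicate 2, the median fold over that NC library was 2.30 and 2.14. In lane 3, which holds Hdac1/2 cKD replicate 3, Sin3a KD replicates 2 and 3 and NC replicate 3, it was 3.04, 2.30 and 2.79. Lane 4 and lane 5 hold 1 library each, so no value within them could be had.

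NC replicate 3 was the lowest control in 39 of the 76 genes (51.3%), against 36.1% of the 9541, and NC replicate 2 in 11 (14.5%), against 37.4%. Median folds of the 76 over NC replicate 2 alone were 2.14 to 2.30 for Hdac1/2 cKD and 1.71 to 2.31 in Sin3a KD. Over NC replicate 1 alone they were 2.496 to 2.71 for Hdac1/2 cKD and 2.04 to 2.56 in Sin3a KD. Over NC replicate 3 alone they were 2.88 to 3.04 for Hdac1/2 cKD and 2.30 to 2.79 in Sin3a KD. All folds over a single NC library were taken with 1 added to each value, so Sycp1 is included. Spread among the NC libraries was wide for these genes, with a median coefficient of variation of 25.2% in NC against 16.3% over the 9541. In Hdac1/2 cKD it was 14.5% against 11.6%, and in Sin3a KD 20.002% against 12.2%. With NC replicate 2 left out, 155 genes met the conditions, 65 of the 76 among them, and 32 of the 76 met them whichever of the 9 libraries was left out. Scaled to equal totals, 115 genes met them, 73 of the 76 among them, a scaling that shifts the median of all genes by 0.11 in Hdac1/2 cKD and by 0.09 in Sin3a KD relative to NC.

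**Figure D4:**
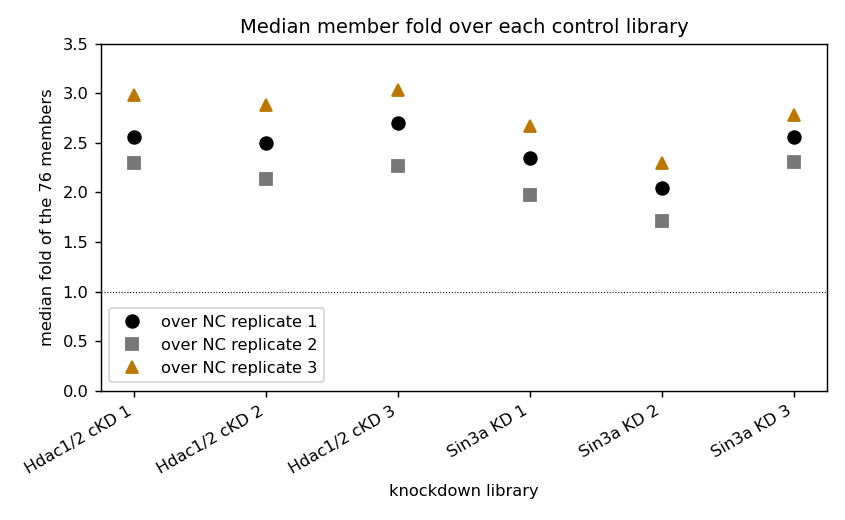
Median fold of the 76 genes in each knockdown library over each NC library taken alone (points, 6 knockdown libraries by 3 NC libraries, Hdac1/2 cKD left of Sin3a KD). All medians, taken with 1 added to each value, exceed 1. For each knockdown library the median over NC replicate 2 is the smallest (1.71 to 2.31) and that over NC replicate 3 the largest (2.30 to 3.04).

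Transcripts of the genes were rich in G and C. The median GC share over 75 with a matched annotation was 55.3%, against 50.1% in other genes with an NC mean of at least 50, and 33 of the 75 (44.0%) lay among the genes with the highest transcript GC, defined to hold 20.01% of all. Tested genes in the top of 5 equal classes of transcript GC deviated from their mean over libraries by a median log2 of 0.06, 0.10 and 0.15 in Hdac1/2 cKD, 0.06, -0.08 and 0.07 in Sin3a KD, against 0.03, -0.13 and -0.08 in NC. After the values of each library had been centred within classes of transcript GC, a step added after the data were seen, 66 genes met the conditions, 57 of the 76 among them. The other 19 are BC017643, which has no GC value and could not enter, and 18 that no longer met the conditions, Fcgrt, Hspg2, Fscn1, H2-K1, Pfkl and Smad1 among them. The median gene spanned 28855 bases against 23719. Of the promoters with a sequence, 78.5% had an observed over expected CpG ratio of at least 0.6, against 79.3%. ETS cores (CCGGAAG on either strand) occurred in 7 of the 65 promoters (10.8%), against 21.4%, and the palindrome CACGTG in 9 (13.8%), against 11%. The motif shares were not tested.

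**Figure D5:**
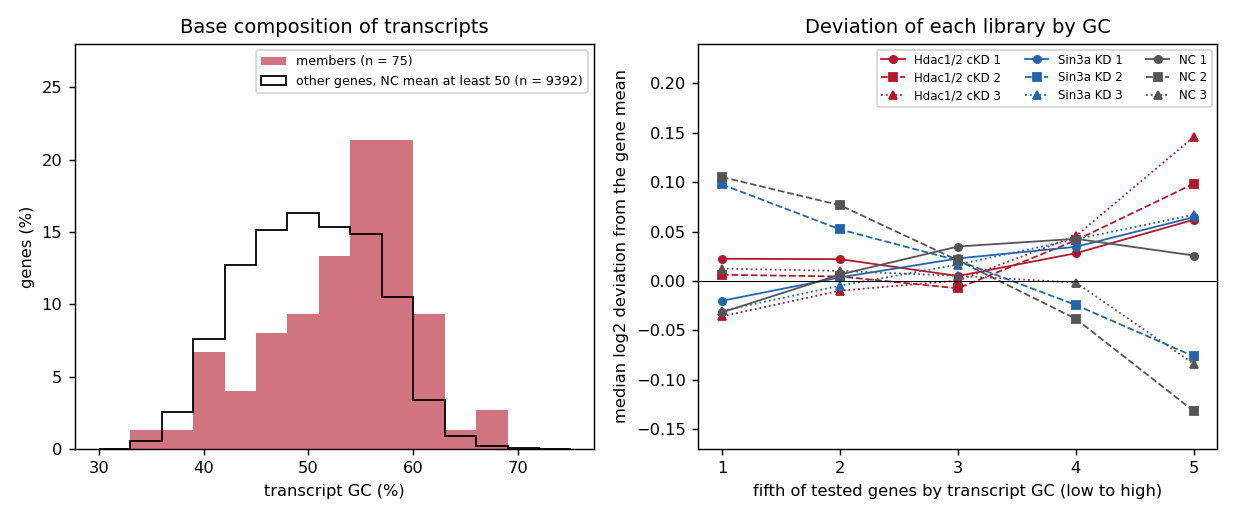
Transcript GC of the genes (n = 75) and of other genes with an NC mean of at least 50 (n = 9392) as the share of each set per class of GC percent, and the median log2 deviation of all tested genes in 5 classes of transcript GC in each library (Hdac1/2 cKD, Sin3a KD, NC). The median is 55.3% against 50.1%, and in the top class all 3 Hdac1/2 cKD libraries lie above 0 and NC replicates 2 and 3 lie below 0.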

How the data were processed

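Signal values deposited by the authors are gene-level read counts from Salmon divided by DESeq2 normalisation factors, per the submitters' processing notes, which also name GRCm38; they are called normalised counts here. For tool versions and strand handling, the value is not given in the sources used here. A line without a gene name (0.00543% to 0.00896% of each library) was left out. The 76 genes, the gene lists and the tests were chosen with earlier results of these data known, the grouping by role was written after the members were known, and the 2 hypoxia cores were added after that.

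Values were tested as log2(value + 1) with limma 3.58.1 (trend and robust, R 4.3.3), with 1 mean per group over 9 libraries (6 residual degrees of freedom) and Benjamini-Hochberg adjustment over 13343 genes with at least 10 in at least 3 libraries. Since these are not raw counts, no count test was run, and how far sequencing depth limits low genes is unknown. The fit was tested on simulated data. A log2 difference on this scale understates changes of low genes.

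Genes named with values are the 12 with the highest smaller fold, the called genes with the 6 largest differences each way, up to 3 per gene list, the 6 most abundant and those at the limit. The others are named to account for every gene, and the values shown for others, Gdf11, Nisch and Rasd2 among them, were chosen after being seen. GENCODE vM21 gave positions for 75 genes (BC017643 was not matched) and for 19754 of all (98.3%). RefSeq promoters covered 65, and 12 motifs were searched on both strands. Of 43 gene lists, written from general knowledge, 12 hold at least 1 of the genes and 31 hold 0, and 56 genes are in no list. Of the 76 genes, 1 is counted throughout but not reported here by name.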

Additional observations from a re-analysis of the deposited data

Results flagged for a closer look

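For 12 genes the effects of the knockdowns over the same NC libraries differed by the limma test of Hdac1/2 cKD against Sin3a KD. The log2 differences were 2.30 for Ldha, 1.63 for Fcgrt, 1.35 for Pcgf2, 1.35 for Znf512b and 1.33 for Hmga1. They were 1.25 for Hspg2, 1.19 for Sfmbt2, 1.14 for Ly6e, 0.91 for Gdf11, 0.87 for Nisch, 0.83 for Slc27a3 and 0.71 for Cbx6. Each was higher in all 3 Hdac1/2 cKD libraries than in all 3 Sin3a KD libraries.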

How the results depend on the processing

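The count of 13 genes higher in Hdac1/2 cKD than in Sin3a KD became 6 with lane as a factor. It was 8 to 17 when 1 library was left out, lowest without Hdac1/2 cKD replicate 1, and 19 with only the 6 knockdown libraries. Without trend and robust moderation it was 9. The calls of Slc27a3, Gdf11, Cbx6 and Nisch were then lost (adjusted p = 0.0706, 0.0591, 0.0887 and 0.0506, limma). The count of lower genes was 0 in every setting. The median difference of 0.23 was 0.21 with TMM scaling, 0.12 with lane as a factor, 0.20 after the correction for transcript GC, and 0.14 to 0.33 with 1 library left out. Of the 273 settings of the 13 genes, 240 kept the call, 33 lost it and 0 turned the direction. With lane as a factor the log2 difference stayed close for Ly6e (1.12, adjusted p = 0.0547), Hspg2 (1.16, 0.123) and Gdf11 (0.84, 0.18) and was higher for Slc27a3 (0.97, 0.131). It was lower for Znf512b (1.06, 0.0564), Sfmbt2 (0.88, 0.0773), Pcgf2 (0.87, 0.245) and Cbx6 (0.50, 0.354), and none of these 8 passed. That fit gains nothing from the libraries alone on their lanes, and other causes were not tested. The count of 76 genes that met the conditions was 197 at a limit of 1.5-fold, 44 at 2-fold, 126 at an NC mean of 20, 42 at an NC mean of 100, 115 with equal totals and 71 to 155 with 1 library left out. Over all genes, the 1133 higher and 1171 lower calls became 450 and 552 with lane as a factor. They became 753 and 771, 715 and 792, and 744 and 683 without Hdac1/2 cKD replicate 1, Hdac1/2 cKD replicate 2 and Sin3a KD replicate 1, and 722 and 668 without both libraries alone on their lanes, and 842 and 775 without trend and robust moderation. Whether replicate numbers pair the libraries is unknown. Same-numbered libraries correlated at -0.02 to 0.06 in their deviations from the group means, and differently numbered ones at -0.04 to 0.03. Such low values show no pairing, but a weak one could be missed. A fit with the replicate block gave 15 genes higher, 13 of them shared, and a median of 0.23. The control level of these genes was low (a median of 111), and the sequencing depth behind it is unknown.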
